A study of Mus musculus with 6 samples.

Results

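Transcripts of the insulin-like growth factor (IGF) family were compared between 2 cell populations sorted from the limbs of 3-day-old mice. The family was taken as 10 genes, namely the binding protein genes Igfbp2 to Igfbp7, the ligand gene Igf2 and the receptor genes Igf1r, Igf2r and Insr. Its members were all 27 probe sets annotated to 1 of these genes alone, among 45037 probe sets and 18193 genes in all, and each gene was read from the probe set of highest average level across the 6 arrays. Probe sets were thus chosen by mean level and not by the difference between populations. The genes themselves were chosen with earlier results of these data known, so their counts are a description of the family.

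Both populations came from wild-type mice according to the genotype label, while the protocol speaks of GFP-labelled mice. Fore and hind limbs of a litter were pooled, digested with collagenase, stained and separated by flow cytometry. The Tie2-negative population lacked the blood cell antigens CD45 and Ter119, the integrin chain Itgav, and also Tie2, the receptor for angiopoietins, which Tek encodes. The Tie2-positive population also lacked CD45 and Ter119, was low for Itgav and carried Tie2. Ptprc, which encodes CD45, nonetheless had normalized log2 values of 4.87, 9.95 and 11.23 in Tie2-positive replicates 1, 2 and 3 and 9.52, 10.41 and 9.42 in the Tie2-negative ones, so that of the 6 arrays only Tie2-positive replicate 1 lay below the median of all gene values, 6.55. Each had 3 samples on Affymetrix Mouse 430 2.0 arrays, and nothing states that the 3 came from separate litters, so a p-value here reflects only how far these samples scatter, which may be technical scatter. All values are log2 array values after quantile normalization, a difference is Tie2-positive minus Tie2-negative, and precision is limited by how many arrays there are.

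IGF1 and IGF2 are secreted growth factors that act through the IGF1 receptor, a tyrosine kinase, and IGF2 also acts through the insulin receptor. The IGF2 receptor, which also binds mannose-6-phosphate, takes IGF2 up for breakdown in lysosomes. IGF-binding proteins hold the ligands in the fluid around cells, lengthen their life and regulate their access to the receptor, and in bone IGF signalling acts on growth and on vessels.

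RefSeq promoter windows (GRCm38.p6, from 250 bases before to 50 after the transcript start) are shown for Igfbp3, Igfbp4 and Igfbp7, which are higher in the Tie2-positive population below, and for Igfbp1, the protein-coding neighbour of Igfbp3, which did not pass. Capitals mark matches on either strand to any of 5 motifs: TATAAA or the like TATATA, the GC box motif GGGCGG, the hypoxia element core ACGTG, and the ETS factor motif AGGAAG.
Igfbp3 (chr11:7213874-7214173, minus strand): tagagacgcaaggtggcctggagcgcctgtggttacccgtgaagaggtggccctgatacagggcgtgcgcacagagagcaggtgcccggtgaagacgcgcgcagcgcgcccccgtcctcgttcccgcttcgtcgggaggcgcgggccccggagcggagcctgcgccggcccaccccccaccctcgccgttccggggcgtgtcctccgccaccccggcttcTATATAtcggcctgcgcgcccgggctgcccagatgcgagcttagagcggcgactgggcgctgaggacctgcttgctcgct
Igfbp4 (chr11:99040994-99041293, plus strand): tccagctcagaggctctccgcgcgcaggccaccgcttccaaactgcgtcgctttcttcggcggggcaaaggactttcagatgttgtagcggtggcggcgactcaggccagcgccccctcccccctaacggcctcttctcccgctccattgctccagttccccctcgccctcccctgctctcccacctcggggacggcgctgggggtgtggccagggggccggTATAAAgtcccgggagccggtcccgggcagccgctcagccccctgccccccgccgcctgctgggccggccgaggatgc
Igfbp7 (chr5:77407996-77408295, minus strand): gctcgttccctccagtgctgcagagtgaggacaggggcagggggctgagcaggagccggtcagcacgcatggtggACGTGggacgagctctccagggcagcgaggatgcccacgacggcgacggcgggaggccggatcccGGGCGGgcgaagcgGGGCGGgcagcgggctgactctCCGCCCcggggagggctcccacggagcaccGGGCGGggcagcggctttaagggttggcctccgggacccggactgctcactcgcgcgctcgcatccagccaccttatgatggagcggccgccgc
Igfbp1 (chr11:7197537-7197836, plus strand): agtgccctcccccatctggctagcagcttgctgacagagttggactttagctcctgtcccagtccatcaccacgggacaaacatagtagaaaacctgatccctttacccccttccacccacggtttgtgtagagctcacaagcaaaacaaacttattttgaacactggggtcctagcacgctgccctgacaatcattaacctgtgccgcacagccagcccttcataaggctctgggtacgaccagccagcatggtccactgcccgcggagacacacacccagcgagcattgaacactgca
Igfbp3 and Igfbp4 each held a TATA-like match, TATATA beginning at position -30 and TATAAA at -28 from the start, while Igfbp7 held 4 matches to GGGCGG and 1 to ACGTG and Igfbp1 none of the 5 motifs. No marked matches overlapped one another. Of 32851 RefSeq windows of this length, 13.6% held TATAAA, 5.67% held TATATA, 35.7% held GGGCGG, 19.6% held ACGTG and 35.4% held AGGAAG. Outside the windows shown, Igfbp6, which was not called, also held TATAAA, at position -148. Igf2r held 3 matches to GGGCGG, 4 to ACGTG and 1 to AGGAAG, and Igf1r 2 to GGGCGG, and neither gene was called. The called gene Igfbp2 held 3 matches to GGGCGG and 2 to ACGTG in 1 window and 2 to AGGAAG in the other. Igf2, also called, held 2 matches to GGGCGG in 1 window, and 1 to GGGCGG and 1 to ACGTG in another. A further Igf2 window held 2 matches to AGGAAG and the last held 0 of the 5 motifs. CpG dinucleotides numbered 37 in the Igfbp3 window, 33 in Igfbp7, 27 in Igfbp4 and 8 in Igfbp1. The called genes Igfbp2 and Igf2 had 14 to 18 and 2 to 24 in their 2 and 4 windows, and of the members without a call Igf1r had 48, Igf2r 34, Igfbp5 10 and Igfbp6 8, so called and uncalled genes overlapped in this count. The matches are a description of these letters, and no binding was measured.

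Of the 10 genes, 5 were higher in the Tie2-positive population (Igfbp2, Igfbp3, Igfbp4, Igfbp7 and Igf2), 0 were lower and 5 did not pass (limma, adjusted p under 0.05 over all genes). Over all 18193 genes 4.86% were called higher, 2.53% lower and 7.39% in either direction. The median difference of the 10 genes was 1.90, beside -0.11 over all genes. In 7 members every Tie2-positive value lay above every Tie2-negative one, which held for 15.2% of all genes, and in 1 every value lay below, which held for 23.9% (39.1% in either direction). The calls changed with single arrays left out: without Tie2-negative replicate 1 or replicate 2, 0 members and 0 of all genes passed, and the adjusted p of the 5 members then ran from 0.0518 to 0.111. Without Tie2-negative replicate 3 or Tie2-positive replicate 2, 4 members were called higher. At an unadjusted p under 0.05, limma gave 8 of the 10 members without Tie2-negative replicate 1 and 6 without replicate 2. Of all 18193 genes, 4012 and 3980 were under 0.05 in the same fits.

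**Figure D1:**
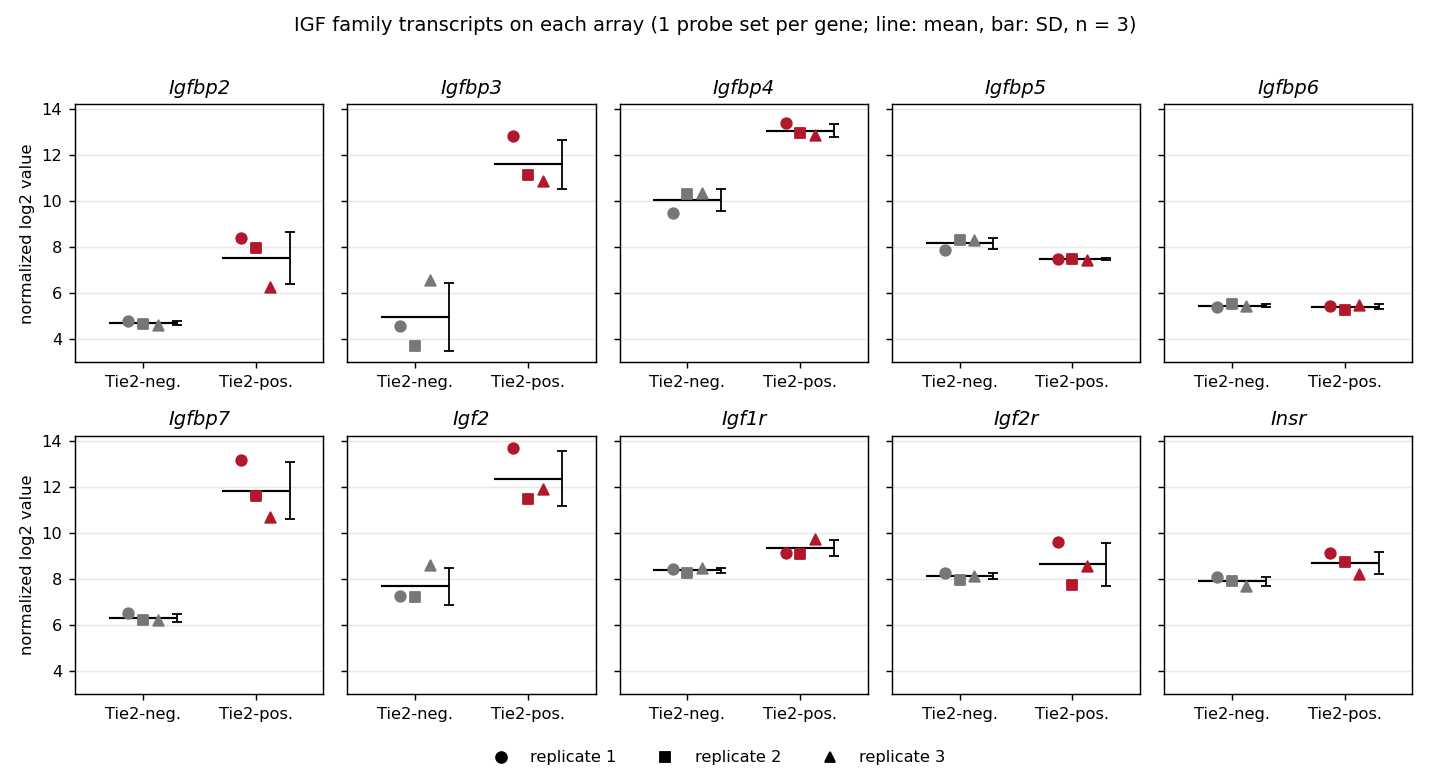
Normalized log2 value (y axis) of each of the 10 IGF family genes on the 3 Tie2-negative (grey) and 3 Tie2-positive (red) arrays, with the mean (line) and SD (bar), n = 3; symbols give the replicate number. The populations are apart by over 4 in Igfbp3 (4.27) and Igfbp7 (4.21), while those of Igfbp6 and Igf2r overlap.

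Among the ligands, Igf2 was high in the Tie2-positive cells. Its main probe set (1448152_at) read 13.70, 11.45 and 11.90 in Tie2-positive replicates 1, 2 and 3 and 7.24, 7.20 and 8.60 in Tie2-negative replicates 1, 2 and 3. The populations did not overlap, and Tie2-positive replicate 1 and Tie2-negative replicate 3 were the highest of their groups. Igf2 rose by 4.67 ± 0.66 (SE, 3 arrays each; limma, adjusted p = 0.0147). The other Igf2 probe set was higher by 1.30 ± 0.37 and did not pass when all probe sets were tested (limma adjusted p = 0.0889), and over the mean of both the rise was 2.99. Without Tie2-negative replicate 1 or 2 the rise of Igf2 did not pass (4.45, adjusted p = 0.0808, and 4.43, adjusted p = 0.0755).

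Igf1, the other ligand, was no member and was taken from the list of further pathway genes. It read 10.33, 9.17 and 9.21 in the Tie2-positive and 5.27, 6.08 and 7.87 in the Tie2-negative samples, replicates 1 to 3. In all 4 of its probe sets the Tie2-positive values lay above the Tie2-negative ones. Over all genes, each read from its main probe set alone, such a separation held for 15.2%. Probe sets 1419519_at (1.23 ± 0.38) and 1452014_a_at (1.68 ± 0.54) did not pass over all probe sets (limma adjusted p = 0.110 and 0.122). Read from its main probe set, Igf1 rose by 3.16 ± 0.68 (SE, 3 arrays each; limma, adjusted p = 0.0417). It still passed when either Tie2-positive replicate 1 or Tie2-negative replicate 3 was dropped, but not without any one of the other arrays, with differences from 2.60 to 3.36 and adjusted p from 0.0618 to 0.141, nor over the mean of its probe sets (2.36, adjusted p = 0.0511).

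Igfbp3, whose product is the main carrier of IGFs in blood, had the largest difference of the family and the fifth largest rise of all genes. It read 12.83, 11.14 and 10.87 in Tie2-positive replicates 1, 2 and 3, against 4.60, 3.73 and 6.59 in the Tie2-negative ones. Tie2-negative replicate 3 was thus nearest to the Tie2-positive samples, and still 4.27 below the lowest of them. Igfbp3 rose by 6.64 ± 0.82 (SE, 3 arrays each; limma, adjusted p = 0.0123), and its other probe set rose by 4.54 ± 0.72 (adjusted p = 0.0209 over all probe sets). In the Tie2-negative samples Igfbp3 averaged 4.98 in the probe set used and 5.65 in the other. Its neighbour Igfbp1, a binding protein made mainly by the liver, read 4.35, 3.99 and 3.96 in the Tie2-positive and 3.92, 3.96 and 3.90 in the Tie2-negative samples and did not pass (0.17 ± 0.12, SE; adjusted p = 0.378). Igfbp3 did not pass without Tie2-negative replicate 1 (6.45, adjusted p = 0.0676) or 2 (6.01, adjusted p = 0.0638).

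Igfbp7, which encodes a secreted protein of vessel walls with low affinity for IGFs, was the second of the family by size. It read 13.15, 11.61 and 10.70 in Tie2-positive replicates 1, 2 and 3 and 6.50, 6.23 and 6.19 in the Tie2-negative ones. All 3 Tie2-negative samples lay close together, within 0.30, whereas the Tie2-positive samples spanned 2.45. Igfbp7 rose by 5.51 ± 0.58 (SE, 3 arrays each; limma, adjusted p = 0.0104). Its other 2 probe sets gave differences of 1.92 ± 0.63 and -0.23 ± 0.23. Neither passed over all probe sets (limma adjusted p = 0.127 and 0.562), and the rise over the mean of the 3 was 2.40. In the Tie2-negative samples the probe set used averaged 6.31, below the 7.08 of the one that differed by -0.23. Without Tie2-negative replicate 1 or 2 the adjusted p of Igfbp7 was 0.0633 and 0.0638.

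Igfbp4, whose product inhibits IGF action until a protease of the pappalysin family cleaves it, had the smallest spread of the called members within the Tie2-positive samples (SD 0.28, n = 3), though not within the Tie2-negative ones (SD 0.49, n = 3, beside 0.08 in Igfbp2 and 0.16 in Igfbp7). It read 13.39, 12.97 and 12.86 in the Tie2-positive and 9.50, 10.33 and 10.35 in the Tie2-negative samples, replicates 1 to 3. Igfbp4 rose by 3.01 ± 0.28 (SE, 3 arrays each; limma, adjusted p = 0.0103). Of its 6 probe sets, 5 rose over all probe sets, by 1.38 to 3.62, and 1 did not pass (0.06 ± 0.22). Without Tie2-negative replicate 1 or 2 the adjusted p was 0.0518 and 0.0607. Pappa and Pappa2, the pappalysin genes, did not pass (-0.46 ± 0.22 and -0.32 ± 0.12).

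Igfbp2, whose product binds IGF2 and also integrins, was read from a single probe set. It read 8.40, 7.97 and 6.27 in Tie2-positive replicates 1, 2 and 3 and 4.79, 4.65 and 4.63 in the Tie2-negative ones. Tie2-positive replicate 3 was the lowest of its group and lay 1.49 above the Tie2-negative samples. Igfbp2 rose by 2.85 ± 0.52 (SE, 3 arrays each; limma, adjusted p = 0.0272). It did not pass without Tie2-negative replicate 1 (adjusted p = 0.111), 2 (0.107) or 3 (0.0872) or without Tie2-positive replicate 2 (0.0807), with differences between 2.64 and 2.90 in these fits.

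Igfbp5 gave opposite directions in its 2 probe sets. Its product is a binding protein abundant in bone matrix, and its gene is the protein-coding neighbour of Igfbp2. The probe set with the higher mean (1422313_a_at) read 7.51, 7.50 and 7.46 in the Tie2-positive and 7.90, 8.33 and 8.30 in the Tie2-negative samples. This difference of -0.69 ± 0.21 (SE, 3 arrays each) did not pass in limma (adjusted p = 0.0906), although the populations did not overlap.

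The other Igfbp5 probe set (1452114_s_at) read 10.76, 9.67 and 9.50 in the Tie2-positive and 3.74, 4.66 and 6.46 in the Tie2-negative samples. Its lowest Tie2-positive value lay above its highest Tie2-negative one, and Tie2-negative replicate 3 was again the highest of its group. With this probe set Igfbp5 rose by 5.02 ± 0.70 (SE; limma adjusted p = 0.0147), an alternative added after seeing the data, which brought the members called higher to 6. It did not pass without Tie2-negative replicate 1 (4.41, adjusted p = 0.0662) or 2 (4.88, adjusted p = 0.0766). Over the mean of both probe sets Igfbp5 rose by 2.17 (adjusted p = 0.0341). Which of the probe sets reads Igfbp5 in these cells was not tested.

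Igfbp6, whose product prefers IGF2, did not differ beyond its spread. Its Tie2-positive values ran from 5.29 to 5.50 and its Tie2-negative values from 5.42 to 5.53, and its difference was -0.05 ± 0.13 (SE, 3 arrays each; limma, adjusted p = 0.797). All 6 values were below the median of all gene values (6.55), and no detection calls were at hand to say whether they exceeded background.

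**Figure D2:**
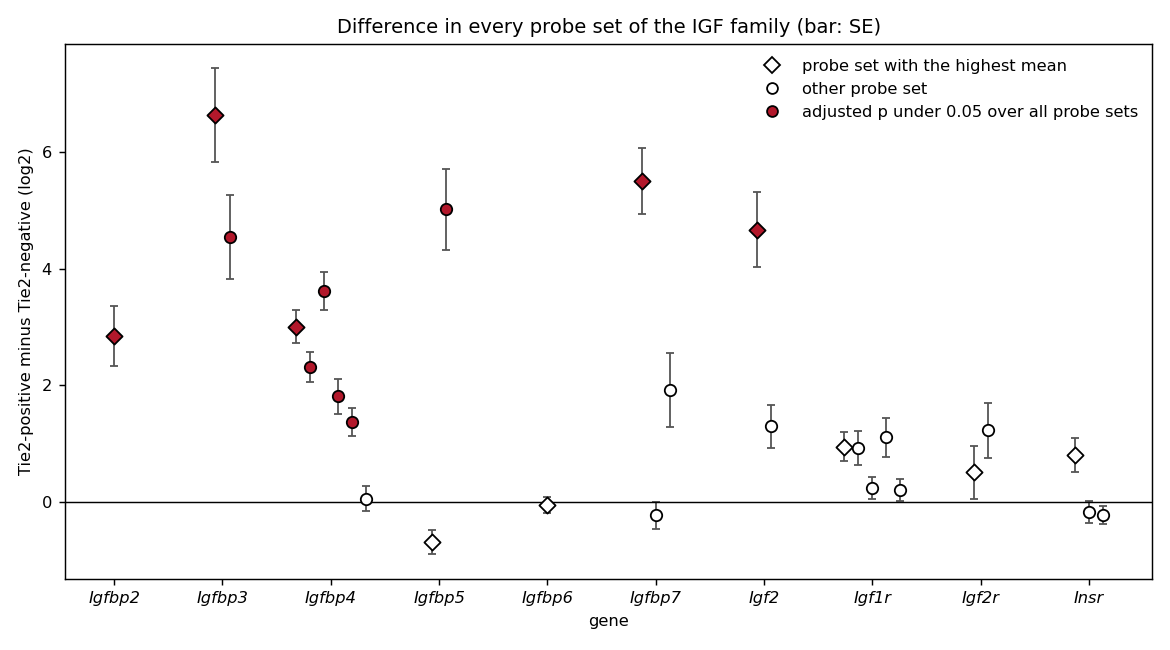
Difference between the populations (log2, y axis; bar, SE) in every probe set of the 10 genes; diamonds are the probe sets with the highest mean, circles the others, and red fill marks an adjusted p under 0.05 over all probe sets. Of 27 probe sets 11 rose and 0 fell, and the 2 of Igfbp5 lie at -0.69 and 5.02.

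The receptor genes differed less and did not pass. Igf1r read 9.14, 9.10 and 9.73 in the Tie2-positive and 8.41, 8.25 and 8.46 in the Tie2-negative samples. Here Tie2-positive replicate 3, not replicate 1, was the highest, and the populations did not overlap. The difference of 0.95 ± 0.24 (SE, 3 arrays each) had a limma adjusted p of 0.0642, and it passed without Tie2-positive replicate 1 (1.04, adjusted p = 0.0403), with the values as deposited (1.09, adjusted p = 0.0438) and with the arrays centred on their medians (1.13, adjusted p = 0.0431). The filter on low values, the fit without a variance trend and array weights also gave a call. The 5 Igf1r probe sets all had differences above 0, from 0.21 to 1.11, and none passed over all probe sets.

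Insr, the insulin receptor gene, read 9.14, 8.73 and 8.19 in the Tie2-positive and 8.09, 7.90 and 7.68 in the Tie2-negative samples. The lowest Tie2-positive value lay only 0.10 above the highest Tie2-negative one, and the difference of 0.80 ± 0.29 (SE, 3 arrays each) did not pass (limma adjusted p = 0.138). With array weights it passed (0.82, adjusted p = 0.0243). The other 2 Insr probe sets lay on the other side of 0, at -0.17 and -0.22.

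Igf2r read 9.60, 7.74 and 8.55 in Tie2-positive replicates 1, 2 and 3 and 8.27, 7.97 and 8.13 in the Tie2-negative ones. In this probe set the Tie2-positive samples lay on both sides of the Tie2-negative ones, and the difference of 0.51 ± 0.46 (SE, 3 arrays each; limma, adjusted p = 0.482) was 0.02 without Tie2-positive replicate 1. The other Igf2r probe set read 9.27, 7.42 and 7.90 in the Tie2-positive and 6.65, 6.94 and 7.30 in the Tie2-negative samples. Here the populations did not overlap, and the difference of 1.23 ± 0.47 (SE) did not pass over all probe sets (limma adjusted p = 0.165). A probe set that names both Igf2r and the antisense transcript Airn was left out. With Tie2-positive replicates 2 and 3 dropped, which left replicate 1 alone, the differences were 1.48 in Igf2r and 1.25 in Insr.

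Levels of cell type markers differed among the Tie2-positive samples. Tek, which checks the sort, read 12.06, 10.86 and 9.80 in the Tie2-positive samples, replicates 1 to 3, while the Tie2-negative ones lay between 4.79 and 4.90. The list of 16 endothelial markers includes Tek, whose difference the sort itself selected for. Of the 16, 11 were called higher, Tek among them (limma, beside 4.86% of all genes), and 5 did not pass. In all 16 every Tie2-positive value lay above every Tie2-negative one, which held for 15.2% of all genes. Their median was 11.57, 10.37 and 9.18 in the same 3 samples, whereas no Tie2-negative median exceeded 6.33. Of 12 neutrophil and monocyte markers 0 were called. Their median ran the other way, at 5.90, 11.27 and 13.27, beside Tie2-negative medians of 6.13, 7.23 and 8.06. That of 8 megakaryocyte markers was 6.47, 9.32 and 8.18, beside Tie2-negative medians of 6.33, 6.25 and 6.66. Of the 8, 1 was called higher, Pf4 (5.29 ± 0.79, SE; limma adjusted p = 0.0170).

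All 5 called members were highest in Tie2-positive replicate 1. They exceeded the mean of replicates 2 and 3 there by 2.02 in Igf2, 1.99 in Igfbp7, 1.83 in Igfbp3, 1.28 in Igfbp2 and 0.47 in Igfbp4, beside 1.80 for the endothelial median and -6.37 for the neutrophil and monocyte median. In bulk samples fewer cells of a type and less RNA per cell cannot be told apart, and the part of these other cells in the values was not tested. When Tie2-positive replicates 2 and 3 were dropped, the rises were 7.85 in Igfbp3, 6.84 in Igfbp7, 6.02 in Igf2, 3.71 in Igfbp2 and 3.33 in Igfbp4. In that fit the lone Tie2-positive sample was assumed to vary like the other group, so only the differences are given.

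The Tie2-negative samples carried blood cell transcripts. The median of 11 erythroid markers lay between 10.27 and 12.12, against 5.62 to 8.03 in the Tie2-positive samples. That of 11 B-lineage markers lay between 7.84 and 10.15, against 5.50 to 5.96. In the Tie2-positive samples 6 erythroid and 7 B-lineage markers were called lower (limma, beside 2.53% of all genes). The other 5 and 4 did not pass, Hba-a1 among the 5 (-0.34 ± 0.23, SE). Tie2-negative replicate 3 exceeded the mean of Tie2-negative replicates 1 and 2 by 2.43 in Igfbp3, 1.38 in Igf2, 2.19 in Igf1 and 2.64 in Plagl1. It differed by 0.44 in Igfbp4, -0.09 in Igfbp2 and -0.17 in Igfbp7. Beside these, the B-lineage median differed by -2.11, the erythroid median by -1.02 and the neutrophil and monocyte median by 1.39. Endothelial (-0.04), skeletal and stromal (0.07) and pericyte and smooth muscle (0.18) medians differed little, and the part of any cell type in this was not tested. Medians of the 16 skeletal and stromal markers lay between 5.54 and 6.28 on all arrays, and of the 16, 0 were called higher and 1 lower. Of this list Col1a2 read 8.30, 8.59 and 8.83 in the Tie2-negative and 9.09, 8.98 and 10.18 in the Tie2-positive samples. It did not pass (0.85 ± 0.37, SE; limma adjusted p = 0.182), nor did Col1a1 (-0.18 ± 0.42). Medians of the 11 pericyte and smooth muscle markers lay between 5.94 and 7.14, and of these 1 was called higher.

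**Figure D3:**
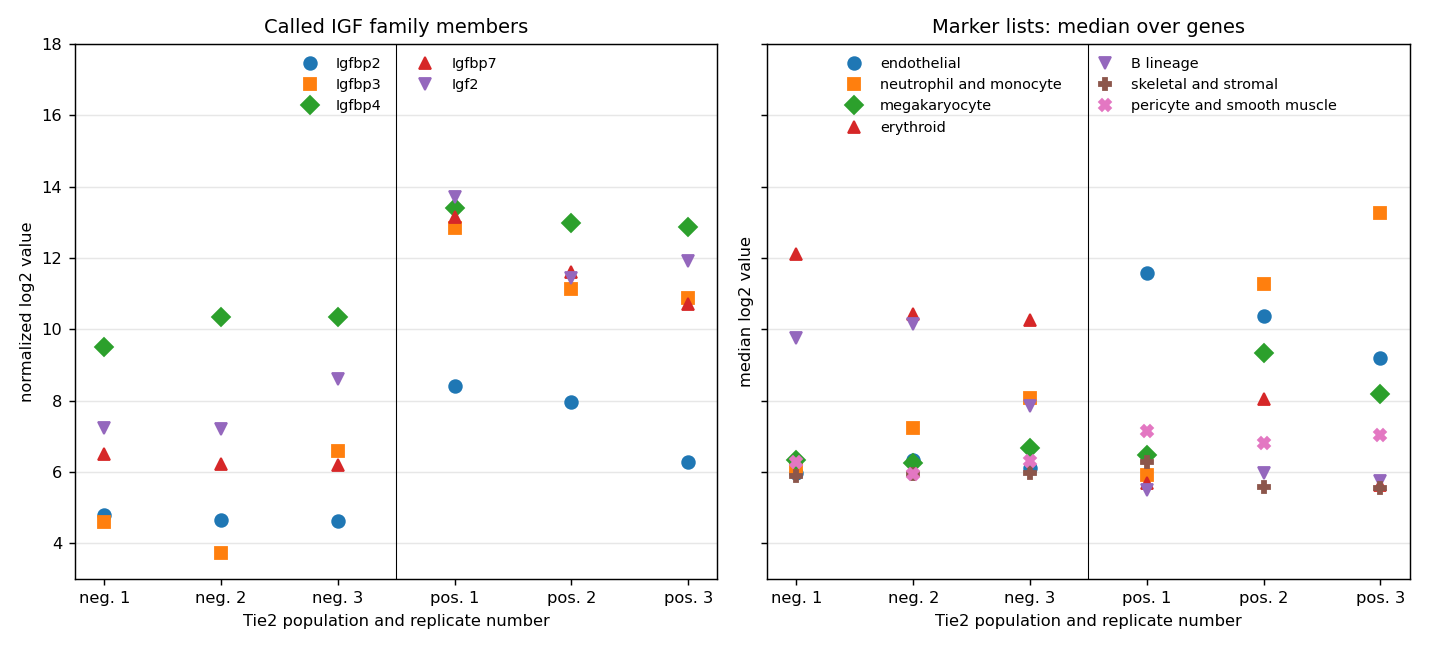
Left, log2 values of the 5 called members on each array, and right, the median log2 level of each marker list on the same arrays (x axis, population and replicate number). In Tie2-positive replicate 1 all 5 members and the endothelial median (11.57) are at their highest and the neutrophil and monocyte median is 5.90, against 13.27 in replicate 3.

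The genes most like each called member were those with the smallest root mean square difference of mean-centred values over the 6 arrays. For Igfbp7 they were Cdh5 (0.18), the cadherin of endothelial junctions, Cldn5 (0.27), a tight junction gene, and Btnl9 (0.29). For Igfbp3 they were the collagen IV gene Col4a1 (0.33), the adhesion molecule gene Vcam1 (0.44) and the caveola gene Cavin2 (0.46). Igf2 was nearest to Lifr (0.14), a cytokine receptor chain, to the laminin gene Lamb1 (0.24) and to Mest (0.26). Nearest to Igfbp2 were Calml4 (0.16), Lpar6 (0.20) and Il13ra2 (0.24), and nearest to Igfbp4 were Gnaq (0.19), Tuba1a (0.22) and Antxr2 (0.22). The measure rests on the same 6 arrays and is a description.

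Of 46 other measured genes listed for the pathway, 5 were called higher and 2 lower (limma, 15.2% called, beside 7.39% of all genes). Their median difference was -0.15. These figures include Pdk1, called lower, which was listed by its name and is not the kinase upstream of Akt. Esm1, which encodes endocan, a proteoglycan secreted by endothelium, rose by 4.37 ± 0.48 (SE, n = 3 per population; adjusted p = 0.0104). Ghr, the growth hormone receptor, rose by 3.48 ± 0.46 (adjusted p = 0.0131), but by 1.31 and without a call from a probe set that is not of the s_at or x_at kind. Grb10, an adaptor that restrains IGF1 and insulin receptor signalling, rose by 1.79 ± 0.35 (adjusted p = 0.0325), and over the mean of its probe sets the difference was 0.87 (adjusted p = 0.0999). Plagl1, a zinc finger factor, rose by 3.38 ± 0.77 (adjusted p = 0.0487), and with s_at and x_at probe sets left out its difference was 0.26 (adjusted p = 0.436). Esm1 and Ghr did not pass without Tie2-negative replicate 1 (adjusted p = 0.0633 and 0.0665) or 2 (0.0638 and 0.0668). Grb10 passed only without Tie2-positive replicate 1 (1.54, adjusted p = 0.0237; otherwise 0.0531 to 0.117), and Plagl1 only without Tie2-negative replicate 3 (4.26, adjusted p = 0.0243; otherwise 0.0513 to 0.160). The number of pathway genes called higher was 8 without Tie2-positive replicate 1, 2 without Tie2-positive replicate 2 and 0 without Tie2-negative replicate 1 or 2.

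Pik3r2, a regulatory subunit of phosphoinositide 3-kinase, fell by 1.31 ± 0.30 (SE, 3 arrays each) on the log2 scale (limma adjusted p = 0.0483). Pdk1 fell by 1.08 ± 0.25 (adjusted p = 0.0485), and this symbol names pyruvate dehydrogenase kinase, an enzyme of energy metabolism, not the kinase upstream of Akt, which is Pdpk1 and did not pass (-0.51 ± 0.31). Irs2, an adaptor below both receptors, read 4.69, 6.22 and 6.17 in the Tie2-positive and 7.02, 7.31 and 7.08 in the Tie2-negative samples. It did not pass (-1.45 ± 0.42, limma adjusted p = 0.0827). Pdpk1, Irs2, Pappa and Pappa2 were named after their values were seen. The decline of Pik3r2 did not pass without any one of the 6 arrays (-1.58 to -1.15, adjusted p from 0.0517 to 0.155), and that of Pdk1 passed only without Tie2-positive replicate 1 (-0.86, adjusted p = 0.0262; otherwise 0.0597 to 0.151). With the values as deposited, neither passed (adjusted p = 0.0808 and 0.0555).

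**Figure D4:**
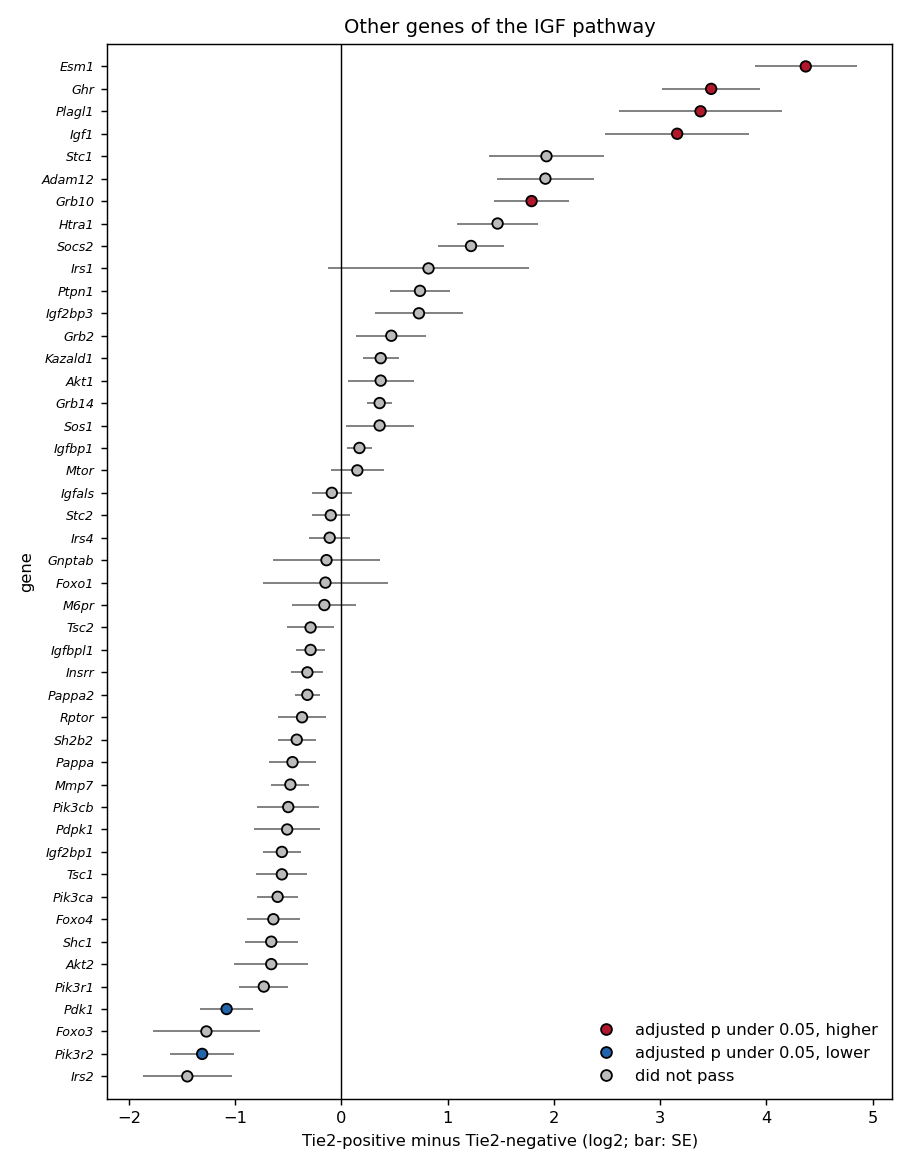
Difference between the populations (log2, x axis; bar, SE, n = 3 each) for the 46 other pathway genes, in order of size; red and blue mark an adjusted p under 0.05. They run from -1.45 in Irs2 to 4.37 in Esm1, and 39 did not pass. Pdk1, in blue, was listed by its name and is not the kinase upstream of Akt.

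**Figure D5:**
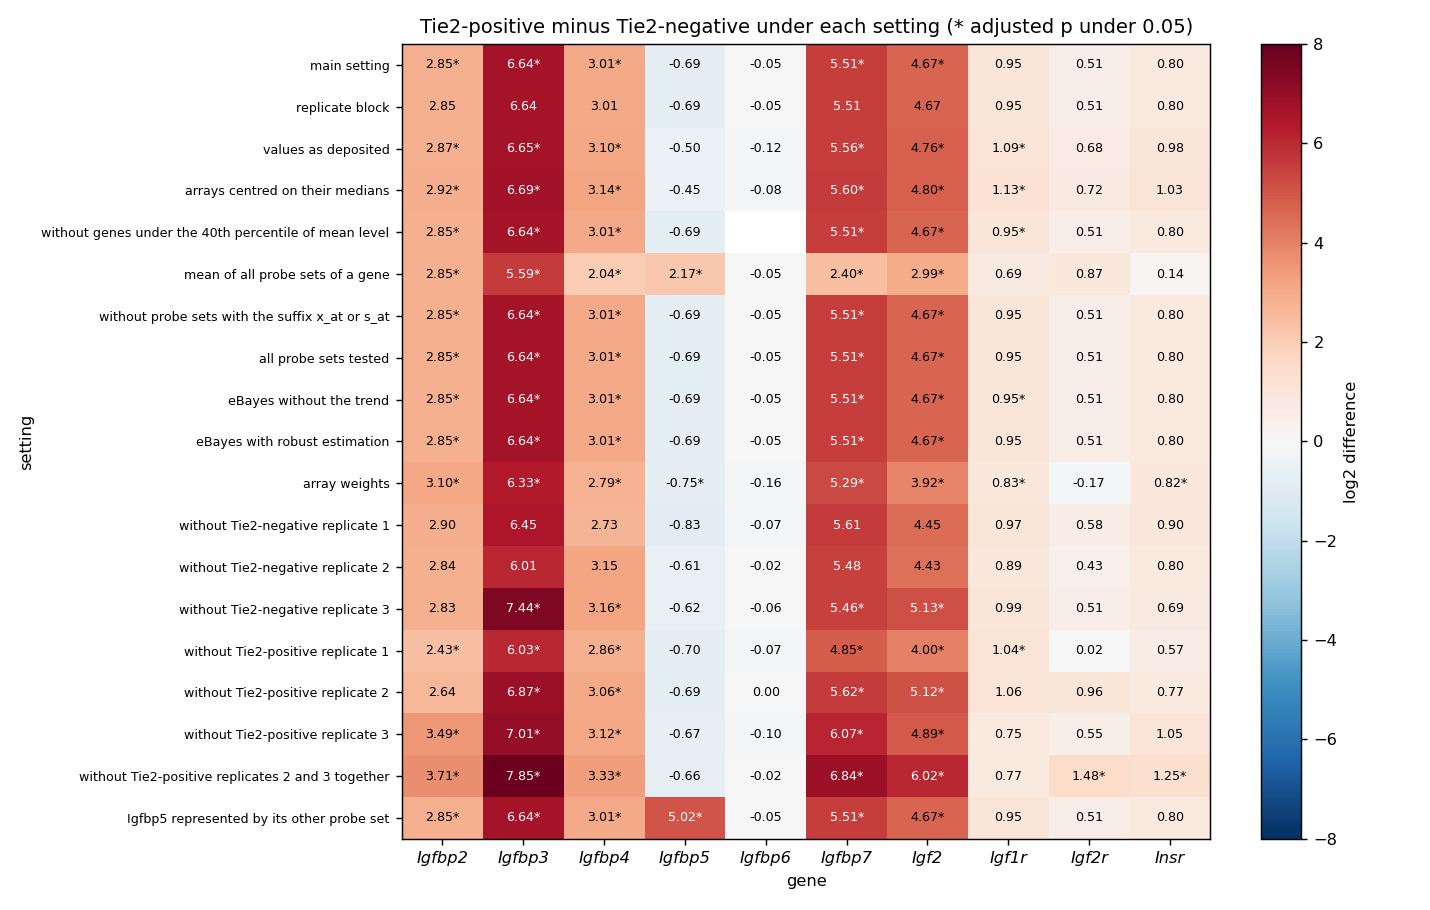
Difference between the populations (log2, colour and numbers) of each member under every setting (rows); stars mark an adjusted p under 0.05, and the blank cell is Igfbp6, which the filter on low values removed. Igfbp5 turns from -0.69 to 5.02 with its other probe set, and the stars of the 5 called members are missing with the replicate block and without Tie2-negative replicate 1 or 2.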

How the data were processed

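RNA of 6 sorted samples was amplified in 2 rounds and hybridised to Affymetrix Mouse 430 2.0 arrays scanned with GCOS 1.1.1, per the labels' protocols. The deposited table holds 1 value per probe set and array, which the authors gave without naming a unit; the log2 scale was taken from the range of the deposited values (2.56 to 14.78). No summarisation or normalization method of the authors is named in the labels, so both are not given in the sources used here.

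The 75th percentiles of the arrays differed by 0.27 (7.26 to 7.33 in the Tie2-negative and 7.45 to 7.53 in the Tie2-positive arrays), so the values were quantile normalized, which also removed that difference. After 64 control probe sets were left out, 34945 of 45037 probe sets carried 1 gene symbol in the platform's annotation, 932 several and 9160 none, and RefSeq gene IDs changed 0 symbols. Each of 18193 genes was read from its probe set with the highest mean. The fit was limma 3.58.1 in R 4.3.3 (lmFit, eBayes with a mean trend), two-sided, with Benjamini-Hochberg adjustment over all genes. No array pair held identical values (0 pairs), and correlations within a population ran from 0.969 to 0.983 (Tie2-negative) and from 0.898 to 0.980 (Tie2-positive).

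The members, the pathway list (50 entries, 46 measured), the marker lists, the naming rule and the motifs were chosen with earlier results of these data known. The rule named every member, every called pathway gene, Igf1, Igfbp1 and the 3 genes most like each called member. Tested on simulated data (18193 genes, 3 and 3 arrays, 200 changed genes, 5 draws), the procedure recovered 46.4% of the genes changed by 1, 80.8% by 2, 92.8% by 3 and 97.6% by 4 on the log2 scale. In it 36 of 830 calls were false (4.34%). The simulated noise was independent between genes and had the Tie2-negative SD in both groups. The measured Tie2-positive arrays were less alike (lowest correlation 0.898, beside 0.969 in the Tie2-negative ones), so these rates may not hold for the measured arrays. The alternatives were the replicate block, other scalings, filters, probe sets and variance models, array weights and arrays left out.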

Additional observations from a re-analysis of the deposited data

How the results depend on the processing

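Over the 10 members and all settings, 148 differences kept their direction and their side of the threshold, 17 no longer passed, 10 newly passed and 4 turned. Those that turned were Igfbp5 over the mean of its probe sets (2.17) and with its other probe set (5.02, added after seeing the data), and, both without a call, Igf2r with array weights (-0.17) and Igfbp6 without Tie2-positive replicate 2 (0.00, in a range from -0.10 with 1 array left out). Members called higher numbered 0 with the replicate number as a block and from 0 to 6 with 1 array left out. With the block the smallest limma adjusted p of all genes was 0.0521. There 8 members, and 5080 of all 18193 genes, had an unadjusted p under 0.05. Members called lower numbered 1, Igfbp5, with array weights, and 0 with 1 array left out. Same-numbered samples deviated from their group means together with correlations of 0.14, 0.01 and 0.19 over genes, so the numbers were not taken to pair the samples, although 5 of the 6 arrays correlated best with their own number in the other population. Pathway genes called higher numbered 0 with the block, 3 over the mean of all probe sets and 8 with arrays centred on their medians. They numbered 9 with array weights and from 0 to 8 with 1 array left out. Pathway genes called lower numbered 0 with the block, with the values as deposited, with arrays centred on their medians and with all probe sets tested. They numbered 1 with robust estimation, 10 with array weights and from 0 to 2 with 1 array left out. Beyond the arrays left out, the cause of these shifts was not tested. The 40th percentile filter removed Igfbp6. No detection calls were at hand, so a low value has no known distance to background.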
